A study of Mus musculus with 6 samples.

Results

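The mouse genome holds 94 protein-coding genes whose symbol starts with Kcn, the prefix of potassium channel genes, among 21851 protein-coding genes in the GENCODE annotation of mm10, and open chromatin at these 94 was examined in cultured beige, white and brown adipocytes. Peaks at their promoters were those with a summit within 1 kb of a transcription start site. Further peaks lay away from all protein-coding starts and inside a channel gene or within 50 kb of it, and merging the lists gave 1465 such regions of 171444 in the whole series. The study was about how macrophages act on the formation of beige adipocytes, and it used ATAC-seq, in which a transposase cuts accessible DNA, to find where the chromatin of the adipocytes was open. All cells were the stromal vascular fraction (SVF) of wild type male C57BL/6J mice aged 3 to 4 weeks, taken through 7 days of differentiation in culture, with 2 libraries for each condition. Beige and white adipocytes were made from inguinal fat and brown adipocytes from brown adipose tissue. The beige medium had 5 μM dexamethasone, 0.5 mM isobutylmethylxanthine, insulin, 1 nM T3 and 1 μM rosiglitazone, and the brown cells received the same mixture. The white medium had 1 μM dexamethasone, 0.5 mM isobutylmethylxanthine and insulin, without T3 and rosiglitazone. Induction in these mixtures lasted 48 h in every condition. By the paper's methods, the beige cells then had only insulin, T3 and rosiglitazone, and the white cells only insulin. For insulin, the labels and the methods give different doses. Beige and white therefore differed in medium, brown and beige in tissue of origin, and brown and white in both. The paper does not describe the brown libraries, so it does not tell whether they were made together with the others. Any difference in time or batch of preparation could not be told apart from tissue of origin. SVF is a mixture of cells that was not sorted. The study calls the ATAC-seq libraries of a group biological replicates, and neither it nor the labels say whether they came from separate animals.

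Potassium channels let potassium ions leave or enter the cell and so set its membrane potential. They fall into voltage-gated channels, inward rectifiers, leak channels with a pair of pore domains (K2P) and channels opened by calcium, sodium or pH, and accessory subunits change the gating or surface level of the pore. In fat cells the membrane potential bears on calcium entry and on the answer to adrenergic signals, and the leak channel gene Kcnk3 is known as a gene of thermogenic adipocytes. Many other members are best known from nerve, heart, kidney or smooth muscle.

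The 6 lists held 109143 to 127490 peaks, and they carry no read counts, so the depth of a library is not known from them and a region missing from a list may lie just under the threshold. The paper's reporting summary gives both beige libraries fewer mapped reads, and a lower mapped share, than both white libraries. It lists none for brown. How depth bears on the presence calls below was not tested. The value given for a peak is the -log10 of its q value in its own library, where 1.3 is the lowest value kept and 5 stands for a q of 0.00001. It is used to rank a peak within its library and not to compare the strength of a peak between libraries. With 2 libraries against 2, an exact permutation test cannot give a two-sided p below 0.333, and with 4 against 2 not below 0.0667, so conditions were compared by presence and without a test. The promoters of 6 of 6 adipocyte markers were open in all 6 libraries. Ucp1, the uncoupling protein of thermogenic fat, had a promoter peak only in the brown libraries, at 3.91 and 2.97, and in neither beige library. Of the other genes listed as brown depot markers, Zic1 was found open in brown replicates 1 and 2 and beige replicate 2, and Lhx8 in all 6 libraries. Of the markers of other cells that SVF can hold, peaks in all 6 libraries were found at 3 of 5 progenitor, 3 of 5 macrophage, 3 of 5 endothelial, 3 of 5 smooth muscle, 3 of 6 neuron and Schwann cell and 0 of 5 skeletal muscle genes. Among them the macrophage genes Csf1r and Ptprc and the endothelial genes Cdh5 and Emcn had no promoter peak in any library. The remaining macrophage genes Adgre1, Cd68 and Cd14 and endothelial genes Pecam1, Kdr and Tek had one in all 6. Of all protein-coding genes, 62.4% had a promoter peak in all 6 libraries. The part of other SVF cells in the values below was not tested.

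Promoters of the channel genes ranged from dense to almost free of CpG, the dinucleotide that is dense in promoters of widely used genes, and 4 of them are shown to make that range visible. They are the 120 bases before a RefSeq start on build GRCm38.p6, with every CpG in capitals. The start is the one nearest to a start used for the promoter call, which it matches in Kcnj2, Kcnj15 and Kcnj16, and it lies 101 bp from it in Kcnip1. Kcnj2 was open in all 6 libraries, Kcnip1 in the white and brown libraries, and Kcnj15 and Kcnj16 in none. The Kcnj2 stretch holds 11 CpG, that of Kcnip1 10, that of Kcnj16 3 and that of Kcnj15 1. The CpG ratio of these promoters, the observed over the expected number as described further on, was 0.540 for Kcnj2, 0.848 for Kcnip1, 0.484 for Kcnj16 and 0.266 for Kcnj15, so Kcnip1 was richer than Kcnj2 by the ratio.
Kcnj2 (chr11:111066044-111066163, plus strand): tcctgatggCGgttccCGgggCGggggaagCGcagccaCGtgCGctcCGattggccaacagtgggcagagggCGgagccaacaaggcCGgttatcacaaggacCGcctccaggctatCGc
Kcnip1 (chr11:33843687-33843806, minus strand): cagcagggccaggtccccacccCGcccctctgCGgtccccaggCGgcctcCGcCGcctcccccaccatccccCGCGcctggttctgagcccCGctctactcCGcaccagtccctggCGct
Kcnj15 (chr16:95257438-95257557, plus strand): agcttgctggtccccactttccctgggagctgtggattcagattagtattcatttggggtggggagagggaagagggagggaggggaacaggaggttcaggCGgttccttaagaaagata
Kcnj16 (chr11:110967913-110968032, plus strand): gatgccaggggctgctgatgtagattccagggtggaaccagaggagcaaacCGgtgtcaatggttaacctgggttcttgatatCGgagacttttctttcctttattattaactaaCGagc

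Most channel gene promoters were either open everywhere or nowhere. A peak in all 6 libraries was found at 57 of the 94 members (60.6%), against 62.4% of all protein-coding genes, and these are called open. No library had a peak at 12 members (12.8%), against 28.5% of all genes, and these are called closed. The remaining 25 (26.6%) were open in part of the libraries, where all genes had 9.10%. Of these 25, 23 were split between the replicates of at least 1 condition (24.5%, against 8.12% of all genes), which leaves few members that separate the conditions. The share open in all libraries was therefore near the background, the share closed lay below it and the share with split replicates above it.

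**Figure D1:**
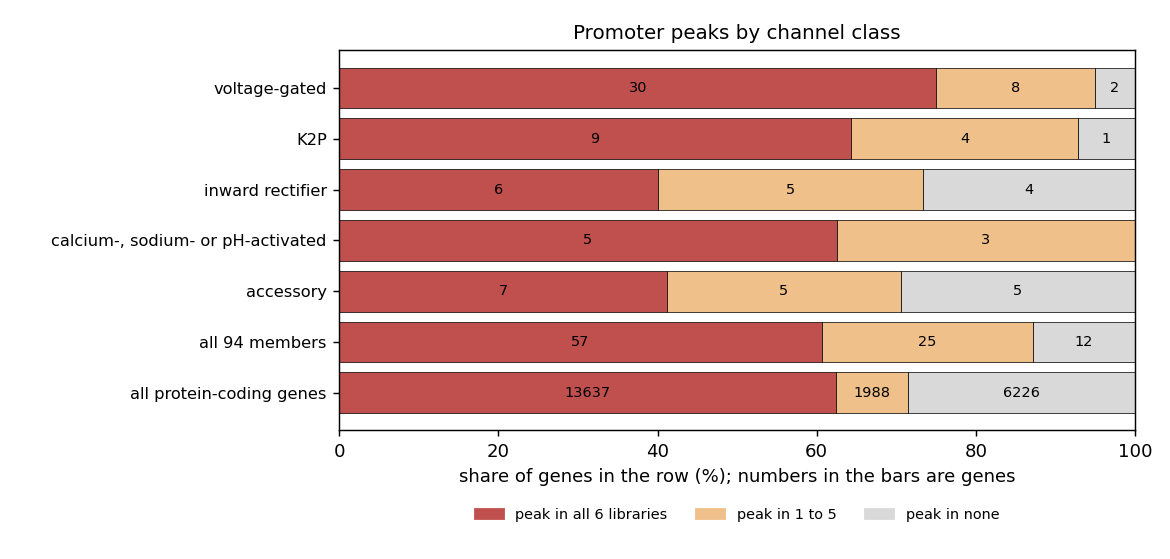
Promoter peaks by channel class. Horizontal bars give the share of genes (%) with a peak within 1 kb of a start in all 6 libraries, in 1 to 5 or in none, and the numbers in the bars count genes; voltage-gated genes had the largest open share, 30 of 40, and the inward rectifiers and accessory genes the smallest, 6 of 15 and 7 of 17.

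Across the conditions the number of members with a promoter peak did not move apart. Beige libraries had 65 and 69 members with a peak (mean 67.0 ± 2.8 SD, n = 2), white libraries 75 and 66 (70.5 ± 6.4, n = 2) and brown libraries 71 and 67 (69.0 ± 2.8, n = 2). The white replicates lay further apart than any pair of condition means. Both replicates had a peak at 62 members in beige (66%, all genes 65.2%), at 64 in white (68.1%, all genes 64.3%) and at 63 in brown (67.0%, all genes 64.4%).

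Only Kcnk15 and Kcnip1 had a promoter peak in both libraries of some conditions and in none of the others. Kcnk15, a K2P gene of the same subfamily as Kcnk3, had peaks in the beige libraries alone, at 6.08 and 2.23, which 0.174% of all genes did. The summits lay 9 and 274 bp after the start, and the second is close to the threshold. Kcnip1, which encodes a calcium-binding partner of the Kcnd channels, had peaks in the white libraries at 10.9 and 2.45 and in the brown libraries at 6.58 and 6.43, and none in beige, a pattern of 0.0870% of all genes. In each of these 4 libraries the nearest summit lay within 53 bp of a start. In white replicate 2 that nearest summit had 2.36, below the strongest at 2.45. No member had a promoter peak in beige and brown alone (0.192% of all genes), in beige and white alone (0.188%), in white alone (0.178%) or in brown alone (0.156%). At neither Kcnk15 nor Kcnip1 did the weaker replicate rank above the lowest 3% of its list, with percentiles of 0.8 for Kcnk15 and 2.6 for Kcnip1.

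Voltage-gated genes made up 40 members and were open at 30, partly open at 8 and closed at 2. All Kcnc (4) and Kcnd (3) genes were open, as were 7 of 8 Kcnh genes. Kcnh1, of the ether-a-go-go family, had values of 68.4 and 80.7 in beige, 46.7 and 45.4 in white and 55.3 and 73.9 in brown, and ranked at or above the 84.7th percentile of each list. Kcnc1, a fast-repolarizing channel gene of neurons, ranked at or above the 87.3rd and Kcns2, whose product is silent on its own and modifies other channels, at or above the 85.7th. Kcna3, known from lymphocytes and studied in fat, had 32.7 and 34.0 in beige, 37.2 and 17.8 in white and 49.4 and 27.2 in brown. Kcnd3, a channel of the cardiac transient outward current, had 16.4 and 14.9 in beige, 15.7 and 7.59 in white and 15.8 and 22.5 in brown. Both were thus open in every library. Kcnq1, the pore of the slow cardiac and epithelial current, was open only in part: it had 2.54 in beige replicate 1 and 6.50 in white replicate 1 and no peak elsewhere. Kcng4, a silent modifier, had 3.45 in beige replicate 1, 4.78 and 2.6 in white and none in brown. Beyond the 1 kb limit, beige replicate 2 had a summit 1326 bp before the start, at 8.37. Brown replicate 1 had one at 1289 bp and 4.03. Kcna10 and Kcns1 were the closed genes of the class.

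K2P leak channel genes numbered 14, of which 9 were open, 4 partly open and Kcnk9 closed. Kcnk3 (chromosome 5, 30588170 to 30625271, plus strand) was open in every condition. Its values were 19.5 and 22.1 in beige, 17.6 and 18.2 in white and 24.0 and 20.7 in brown, with summits 309 to 694 bp after the start. The libraries of the 3 conditions therefore all had the peak, at a lowest percentile of 65.5. Kcnk2, a channel gated by stretch and lipids, had 13.6 and 15.7 in beige, 11.97 and 11.2 in white and 15.8 and 25.9 in brown. Kcnk5, opened by alkaline pH, had 80.7 and 131 in beige, 69.6 and 37.7 in white and 102 and 54.6 in brown. Kcnk6, a weakly conducting leak channel gene, had 16.8 and 26.7 in beige, 8.54 and 11.8 in white and 15.5 and 8.89 in brown. Kcnk5 ranked highest of the class, at or above the 88.0th percentile of each list. Kcnk1 differed in kind, with 3.76 in white replicate 1, 4.63 and 2.89 in brown and no peak in beige, which splits the white replicates. Kcnk9 had no promoter peak although all 6 libraries had a summit 3152 to 3205 bp before its start, at 23.9 to 71.7.

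Inward rectifier genes were the class with most closed pore genes, 4 of 15, beside 6 open and 5 partly open. Kcnj2, the main gene of the classical inward rectifier current, had the next highest promoter of all members after Kcnab2 by its lowest percentile, 94.3. It had 109 and 147 in beige, 116 and 62.2 in white and 166 and 155 in brown, with summits 29 to 66 bp before the start. The gene next to it on chromosome 11, Kcnj16, was closed. Its nearest summits lay 5319 to 5361 bp before a start, at 5.66 to 19.8, so neighboring inward rectifier genes had opposite promoter states. Kcnj10 and Kcnj9 on chromosome 1 were likewise neighbors, with Kcnj10, a glial potassium buffering channel gene, at 24.4 and 19.5 in beige, 8.09 and 11.2 in white and 16.4 and 21.8 in brown, and Kcnj9 closed. Kcnj8 and Kcnj11 encode the pores of the ATP-sensitive channels of vessels and of islets and muscle. Kcnj8 was open, with 25.4 and 22.9 in beige, 15.6 and 23.9 in white and 18.6 and 38.3 in brown. Kcnj11 had 13.5 and 21.7 in beige, 8.18 in white replicate 1 and 14.8 and 15.4 in brown, and only white replicate 2 had no peak. Kcnj15, an inward rectifier gene known from kidney, was closed by the 1 kb limit. All 6 libraries had a summit 1393 to 1452 bp after one of its 4 starts, at 24.1 to 62.3, so it counts as open at a distance of 3 kb.

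Of the 8 calcium-, sodium- or pH-activated channel genes, 5 were open, 3 partly open and 0 closed. Kcnma1, the pore of the large-conductance calcium-activated channel, had modest values of 9.57 and 10.4 in beige, 11.5 and 11.7 in white and 9 and 12.6 in brown. Kcnn2, a small-conductance channel gene, had 19.6 and 15.4 in beige, 16.4 and 15.01 in white and 10.4 and 21.3 in brown. Kcnn3, of the same family, had 14.0 and 7.78 in beige, 5.90 and 6.60 in white and 13.5 and 4.33 in brown. These genes were open in all conditions at a lowest percentile of 20.7 to 45.4. Kcnn4, the intermediate-conductance channel of blood cells and epithelia, had 2.71 and 1.77 in beige, 5.14 and 3.06 in white, 6.27 in brown replicate 1 and none in brown replicate 2, and its lowest percentile was 0.2.

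Accessory genes were open at 7 of 17, partly open at 5 and closed at 5. The Kcnab genes, cytoplasmic partners of voltage-gated channels related to oxidoreductases, were all open. Kcnab2 had the highest promoter of all members, at or above the 95.1st percentile, with 120 and 163 in beige, 116 and 56.9 in white and 214 and 137 in brown. It is the only member with the start of another protein-coding gene, Nphp4, within 1 kb, so the peak cannot be assigned to either gene. Kcnab3 had 65.3 and 102 in beige, 50.2 and 37.1 in white and 70.3 and 65.6 in brown, and Kcnab1 9.90 and 13.1 in beige, 13.5 and 10.8 in white and 16.9 and 13.1 in brown. Among the single-span Kcne subunits, Kcne3, a partner of Kcnq1 in epithelia, was open with 20.3 and 38.3 in beige, 20.1 and 23.7 in white and 36.6 and 17.9 in brown. Kcne4, another partner of Kcnq1, had 6.41 in beige replicate 1, 2.56 in white replicate 1 and 10.3 and 3.82 in brown. Kcne1 and Kcne2, which lie next to each other on chromosome 16, were both closed. Kcnip3, a calcium-binding channel partner that can also act in the nucleus, was open with 63.3 and 35.5 in beige, 30.3 and 19.4 in white and 51.2 and 39.6 in brown. Kcnmb1, the smooth muscle partner of Kcnma1, was closed in every library, while the smooth muscle markers Acta2, Myh11 and Tagln were open in all 6, Cnn1 in 5 and Des in 3. The Kcnma1 promoter thus had a peak in every library and that of Kcnmb1 in none, and of the other partners Kcnmb4 was open, Kcnmb2 partly open and Kcnmb3 closed.

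At the 1 kb limit few calls were close. Just inside it were Kcng4 in beige replicate 1, with a summit 996 bp before the start at 3.45, and Kcng2 in beige replicate 2, with a summit 932 bp after it at 6.30. Just outside were Kcnj5 in white replicate 2, at 1029 bp and 5.10, and Kcne4 in white replicate 2, at 1061 bp and 4.79. Kcng4 in brown replicate 1 lay further out, at 1289 bp and 4.03.

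Open channel gene promoters ranked lower in their lists than open promoters in general. The median percentile over the 57 open members was 66.5 and 64.8 in the beige lists, 67.1 and 63.5 in the white lists and 64.9 and 70.7 in the brown lists. Over all 13637 open genes it was 93.9 and 94.2, 92.3 and 91.5, and 92.7 and 92.9 in the same order. The difference had the same direction in 6 of 6 libraries. In -log10 q the medians were 20.3 and 21.4, 16.4 and 13.4, and 20.8 and 20.4 for the members, against 104 and 116, 60.2 and 42.9, and 106 and 87.8 for all open genes. A median percentile of 90 or more over the libraries was reached by 6 of the 57 open members (10.5%) and by 61.8% of all open genes.

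Open members were richer in CpG than closed ones. The CpG ratio, the observed number of CpG over that expected from the C and G content from 250 bases before to 50 bases after the start, taken as the highest over a gene's starts, had a median of 0.763 in open members (range 0.145 to 1.116), 0.545 in partly open members and 0.307 in closed members (0 to 0.763). For all genes of the same states the medians were 0.808, 0.349 and 0.185. At a ratio of 0.6 or more, 37 of 50 members (74.0%) were open, against 93.5% of all such genes, and 2, Kcnk9 at 0.763 and Kcns1 at 0.721, were closed. Under 0.6, 20 of 44 members (45.5%) were open, against 28.3% of all such genes. Open members with a ratio of 0.6 or more had a median percentile of 65.1, against 94.6 for the 10688 open genes of that kind, so the lower rank was also present among CpG-rich promoters. Under 0.6 it was 69.9 for the 20 open members, against 83.5 for all open genes of that kind. Kcnj2, at 0.540, stood high without reaching that ratio.

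**Figure D2:**
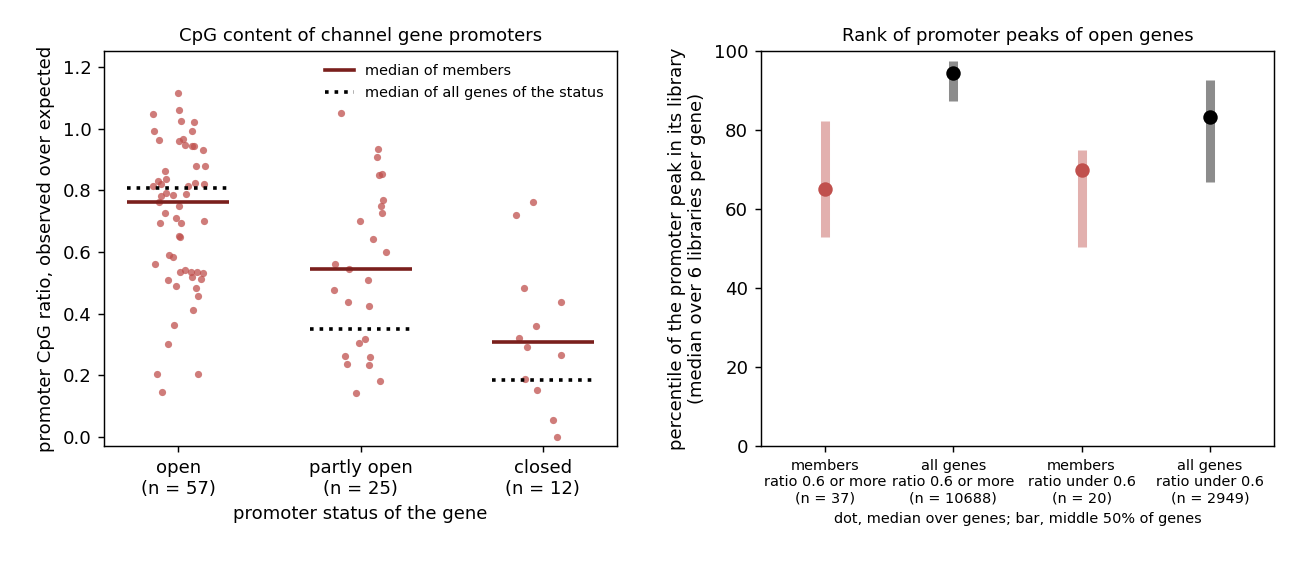
CpG ratio and rank of channel gene promoters. The left panel plots the CpG ratio (observed over expected) of each member by promoter state with the member medians (solid, 0.763, 0.545 and 0.307) and the medians of all genes (dotted); the right panel gives the median percentile of the promoter peak (dot) and the middle 50% of genes (bar) for open genes, where members lie below all genes in both CpG classes.

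Open members were longer than closed ones. The median length was 41.8 kb for open, 29.6 kb for partly open and 11.6 kb for closed members, against 25.4, 13.5 and 7.4 kb for all genes of these states. Closed members were not bare of open chromatin, since all 12 had at least 1 further region with a peak in all 6 libraries, as did all 25 partly open and 48 of 57 open members (84.2%). Among all genes 50.4% of the closed, 84.9% of the partly open and 92.1% of the open ones had such a region. Further regions per 100 kb of gene and flanks had medians of 8.23 in open, 10.03 in partly open and 12.09 in closed members. For all genes the medians were 9.59, 9.28 and 3.78, so closed channel genes had more further regions per length than closed genes in general. Kcnmb1, closed, lies within the span of Kcnip1, and 4 all-library regions were counted for both genes.

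The 1465 further regions lay mostly in introns (830) and between genes (448), with 49 in coding exons and 31 in untranslated regions, and 642 (43.8%) were inside a member. Of these regions 49 counted for more than 1 member. Kcnma1 had the most, 68, followed by Kcnip1 with 54 and Kcnq1 with 41, all of them long genes, while Kcnv1 had 0. Kcnq1 combined a promoter open in 2 libraries with 14 regions open in all 6. One of these regions, at chromosome 7, 143295937 to 143296853, lies within 1 kb of the start of Kcnq1ot1, the antisense noncoding RNA of this imprinted locus, and had 70.4 and 56.8 in beige, 60.0 and 14.2 in white and 70.0 and 67.2 in brown. ATAC-seq peaks do not tell the strand, so that region is given here by position alone.

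Further regions were shared by condition in proportions near those of the whole series. A peak in all 6 libraries was found at 343 (23.4%), against 25.7% of all further regions, and 999 (68.2%) were split between replicates, against 67.1%. Regions with a peak in both libraries of beige and of brown and in no white library numbered 26 (1.77%, series 1.34%), those of beige and white 15 (1.02%, series 1.20%) and those of white and brown 2 (0.137%, series 0.255%). Beige alone had 38 (2.59%, series 2.06%), white alone 23 (1.57%, series 1.30%) and brown alone 19 (1.30%, series 0.956%). Among the 132706 further regions inside or within 50 kb of any protein-coding gene, 27.0% had a peak in all 6 libraries and 65.7% were split. There, beige and brown had 1.42%, beige and white 1.24% and white and brown 0.240%. The shares there were 2.22% for beige alone, 1.27% for white alone and 0.901% for brown alone. The order of the 6 patterns was the same in the channel genes as in the series, except that beige and white changed places with brown alone, at 15 and 19 regions of the channel genes. Per library the members had 744 and 824 regions with a peak in beige (mean 784.0 ± 56.6 SD, n = 2), 701 and 689 in white (695.0 ± 8.5) and 732 and 688 in brown (710.0 ± 31.1). These are 50.8% and 56.2% of the members' regions in beige, where the whole series had 51.3% and 56.8%, 47.8% and 47.0% in white (series 52.2% and 49.8%) and 50% and 47.0% in brown (series 49.6% and 47.7%). The higher counts in beige replicate 2 were thus shared by the series.

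**Figure D3:**
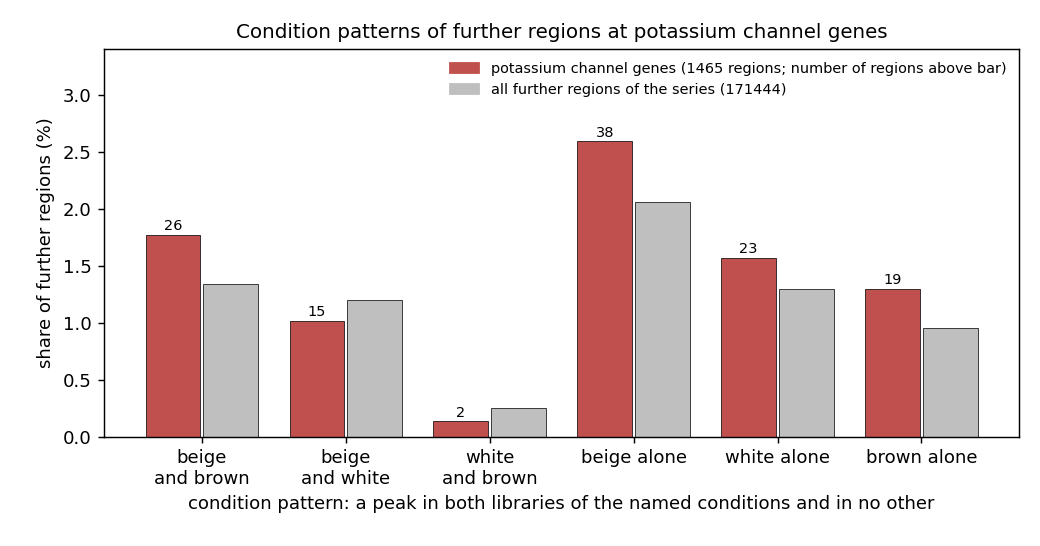
Condition patterns of further regions. Bars give the share (%) of the 1465 further regions of the channel genes, with the number of regions above each bar, and of all 171444 further regions of the series that had a peak in both libraries of the named conditions and in no other; beige alone is the most frequent pattern in each set, with 38 regions at the channel genes.

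The regions that carried the condition patterns most clearly are shown here as the 201 bases around their strongest summit, on the plus strand of GRCm38.p6. For 4 of the patterns the region was taken whose weakest library had the highest value. Letters in capitals match a motif searched for, which is C/EBP (TTGCNNAA) and a glucocorticoid-type element (GNACA and TGTNC, 3 bases apart) in the first, and ETS (CCGGAAG) on both strands in the last. The other 2 hold no match.
Kcnv2 (chr19:27312670-27312870): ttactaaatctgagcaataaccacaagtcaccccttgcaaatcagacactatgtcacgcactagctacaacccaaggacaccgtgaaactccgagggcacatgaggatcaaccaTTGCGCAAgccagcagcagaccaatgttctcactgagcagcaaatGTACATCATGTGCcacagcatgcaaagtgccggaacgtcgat
Kcnt2 (chr1:140661511-140661711): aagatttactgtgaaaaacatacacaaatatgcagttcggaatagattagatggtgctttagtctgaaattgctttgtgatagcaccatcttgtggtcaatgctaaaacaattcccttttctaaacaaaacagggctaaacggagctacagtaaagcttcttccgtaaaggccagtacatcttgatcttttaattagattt
Kcnma1 (chr14:23290752-23290952): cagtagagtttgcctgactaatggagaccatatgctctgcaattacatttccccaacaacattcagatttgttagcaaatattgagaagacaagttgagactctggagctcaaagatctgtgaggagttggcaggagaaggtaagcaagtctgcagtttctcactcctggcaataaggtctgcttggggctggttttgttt
Kcnd3 (chr3:105481259-105481459): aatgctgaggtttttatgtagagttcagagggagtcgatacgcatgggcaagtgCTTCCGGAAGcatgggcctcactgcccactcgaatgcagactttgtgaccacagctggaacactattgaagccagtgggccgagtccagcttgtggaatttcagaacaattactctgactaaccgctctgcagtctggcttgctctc
The Kcnv2 region, 9818 bp before the start of this silent modifier gene, had 14.1 and 17.9 in beige and 19.2 and 10.6 in brown and no white peak. The Kcnt2 region, beyond the end of this sodium-activated channel gene, was open in beige alone at 15.02 and 22.1. The Kcnma1 region, in an intron 359337 bp from the start, was open in white alone at 10.7 and 11.1. The Kcnd3 region, in an intron 22577 bp from the start, was open in brown alone at 11.2 and 9.11. None of the 4 genes had a promoter that followed the pattern: Kcnt2, Kcnma1 and Kcnd3 were open in all libraries, and Kcnv2 had a promoter peak in brown replicate 1 only, at 6.42.

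Kcnk3 and Kcnj15, like other members such as Kcnh1 and Kcnc4, paired a promoter that did not vary with nearby regions that did. Kcnk3 had 24 further regions, 4 of them open in all libraries. A region 38720 bp from the start, just beyond the end of the gene, was open in beige at 7.67 and 16.7 and in brown at 11.6 and 8.72 and in neither white library. Another at 84613 bp, in an intron of Cenpa, had 3.96 and 4.14 in beige and 3.56 and 3.26 in brown, all near the threshold. White alone had a region in the Kcnk3 intron, at 3.95 and 4.33, directly beside a region open in all 6 libraries. The first of these regions is shown with its match to the AP-1 motif (TGANTCA) in capitals.
Kcnk3 (chr5:30626790-30626990): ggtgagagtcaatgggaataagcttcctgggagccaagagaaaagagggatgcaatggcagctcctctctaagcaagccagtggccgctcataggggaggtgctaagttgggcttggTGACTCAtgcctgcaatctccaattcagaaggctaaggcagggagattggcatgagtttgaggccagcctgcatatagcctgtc
Kcnj15 had 21 further regions, of which 3 were open in beige and brown, 1 in beige alone, 1 in brown alone and 3 in all libraries. The region in an intron of the gene, 6248 bp from a start, had 13.3 and 4.65 in beige and 16.4 and 12.9 in brown. That region also holds an AP-1 match.
Kcnj15 (chr16:95264437-95264637): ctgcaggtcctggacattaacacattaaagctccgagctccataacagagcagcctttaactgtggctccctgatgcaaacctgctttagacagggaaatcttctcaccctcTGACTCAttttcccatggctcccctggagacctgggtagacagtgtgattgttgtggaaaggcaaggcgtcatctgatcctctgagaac
The other beige and brown regions of Kcnj15 lay 15746 and 13401 bp before the start, with 10.8 and 5.18, and 5.13 and 7.16 in beige, and 10.4 and 7.69, and 2.98 and 4.45 in brown. Neither gene had a further region of white and brown, and Kcnj15 had none of white alone. Of the 26 beige and brown regions these genes held 5, among their 24 and 21 further regions. Over all further regions this pattern made up 1.77% at channel genes and 1.34% in the series. Kcnj15 is among the members named for having most patterned regions, so its count is no separate result.

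**Figure D4:**
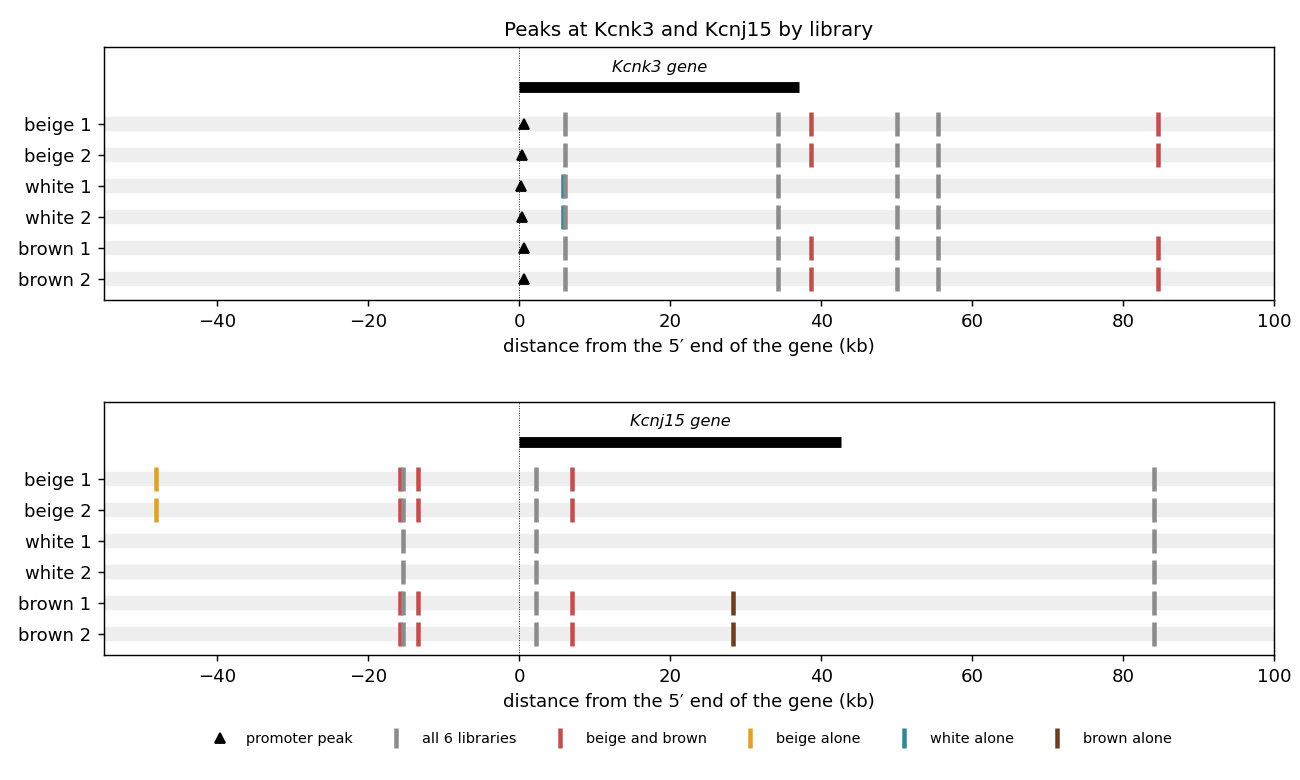
Peaks at Kcnk3 and Kcnj15. Each row is a library, the x axis is the distance (kb) of the summit from the 5′ end of the gene, the black bar is the gene, triangles are promoter peaks and ticks are further regions colored by pattern; regions split between replicates are not drawn. The beige and brown ticks, 2 at Kcnk3 and 3 at Kcnj15, are missing from both white rows.

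Other members with the most patterned regions were Kcnh1 and Kcnip1 with 7 each, Kcnma1 with 6 and Kcnc4 with 5. At Kcnh1 3 were open in beige alone, 2 in beige and brown, 1 in white alone and 1 in brown alone. The strongest Kcnh1 region of beige and brown, 125090 bp into the gene, had 11.2 and 10.49 in beige and 11.8 and 6.83 in brown. At Kcnip1, whose promoter was open in white and brown, no further region had that pattern, while 2 each were open in beige and brown, in beige and white and in brown alone and 1 in white alone. Promoter and further regions of Kcnip1 thus gave different condition patterns. At Kcnc4 the region 21713 bp from the start had 6.75 and 16.6 in beige and 14.9 and 19.5 in brown. Kcnj8, whose promoter was open throughout, had 1 of the 2 white and brown regions, with 9.68 and 3.62 in white and 4.80 and 8.18 in brown. Kcnk1 had 1 white-alone region, 23646 bp before its start, at 10.9 and 10.2.

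Sequence motifs were counted in 201 bases around each further region's strongest summit, on both strands. The repressor element RE1 (CAGCACC and GGACAG, 2 bases apart, with at most 1 mismatch), bound by the silencer of neuronal genes REST, was found in 14 of 1465 regions of channel genes (0.956%) and in 0.345% of all further regions. The CTCF motif (CCNCNAG followed directly by GNGGC), of a factor that shapes chromatin loops, was found in 53 (3.62%, series 1.93%), and among regions open in all 6 libraries in 30 of 343 (8.75%, series 3.79%). AP-1 was found in 298 (20.3%, series 23.1%) and C/EBP, of the adipogenic factors, in 174 (11.9%, series 13.4%). EBF (TCCC and GGGA, 2 bases apart) was found in 26 (1.77%, series 1.45%), ETS in 23 (1.57%, series 1.37%), the cyclic AMP element (TGACGTCA) in 8 (0.546%, series 0.475%), DR1 (AGGNCA repeated after 1 base), the type of site used by PPARG, in 6 (0.410%, series 0.503%), the glucocorticoid-type element in 6 (0.410%, series 0.671%) and NFI (TTGGC and GCCAA, 5 bases apart) in 1. RE1 and CTCF matches were thus more frequent at channel genes than in the series, and by ratio the other shares lay closer to those of the series. These are matches of letters and no test was made.

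RE1 matches with an open region are shown for 2 genes, because by ratio the RE1 share stood furthest above that of the series. Capitals mark the RE1 matches and, in Kcnip1, a C/EBP match as well.
Kcnh2 (chr5:24357530-24357730): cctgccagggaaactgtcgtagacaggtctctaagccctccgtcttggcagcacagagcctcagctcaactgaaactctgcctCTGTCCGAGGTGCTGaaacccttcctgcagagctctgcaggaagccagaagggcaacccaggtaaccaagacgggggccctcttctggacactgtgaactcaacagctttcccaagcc
Kcnip1 (chr11:33680182-33680382): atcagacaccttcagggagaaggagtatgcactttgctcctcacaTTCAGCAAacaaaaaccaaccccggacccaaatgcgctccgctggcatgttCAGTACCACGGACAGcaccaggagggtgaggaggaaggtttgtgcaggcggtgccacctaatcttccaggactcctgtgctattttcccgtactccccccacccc
At Kcnh2, the cardiac repolarization channel gene, the region lay 6026 bp before a start and had 37.6 and 25.7 in beige, 24.9 and 19.0 in white and 25.9 and 16 in brown. The Kcnip1 region lay in an intron and had 7.76 and 21.1 in beige, 7.21 and 11 in white and 12.1 and 3.69 in brown. Of the 14 regions, 3 were open in all libraries, 2 in beige alone, at Kcnh1 and near Kcnn1, and 9 were split between replicates.

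In the promoters, from 250 bases before to 50 after any start, ETS was found at 9 of 94 members (9.57%) against 13.5% of all genes, and at 8 of the 57 open members (14.0%) against 19.8% of all open genes. These 8 were Kcna2, Kcnd3, Kcng1, Kcnh7, Kcnk2, Kcns3, Kcnt2 and Kcnv1. The cyclic AMP element was found at 0 of 94 against 2.91%, and RE1 at Kcna5 alone against 0.307% of all genes.

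Genes that move or sense potassium without carrying a Kcn symbol were mostly open as well. Of 34 such genes 25 were open (73.5%, against 62.4% of all genes) and 5 closed (14.7%, against 28.5%). Among the open genes was Abcc9, the regulatory partner of the Kcnj8 pore, with 8.33 and 11.99 in beige, 4.91 and 11.8 in white and 11.1 and 8.33 in brown. Closed were Abcc8, the islet partner of Kcnj11, the kidney transporters Slc12a1 and Slc12a3, Lrrc26, a partner of Kcnma1, and Slc24a5. Of the other Lrrc genes listed, Lrrc38 and Lrrc52 were open in all 6 libraries and Lrrc55 had a peak in brown replicate 2 only. Kcnj8 and Abcc9 were thus both open, while Abcc8 was closed and the Kcnj11 promoter was open in 5 libraries. Atp1a4, a pump gene of sperm, was open in white alone at 2.52 and 3.62.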

How the data were processed

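The authors aligned ATAC-seq reads of 2 beige, 2 white and 2 brown libraries to mm10 with BWA and called peaks in each library with MACS2, as named in the paper's methods and the submitters' processing notes. The brown libraries are not described in the paper. Each deposited line gives the fold enrichment, a ratio to that library's own local background, and the summit's -log10 q; the lists hold peaks at a q under 0.05. Each line of a list is 1 summit, and intervals with several summits were counted once, at the highest -log10 q. The lists give no read counts, so no interval was computed. The paper's reporting summary gives mapped reads for the beige and white libraries, lower in beige, and none for brown.

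Starts were those of protein-coding transcripts in GENCODE's basic set (M21). A promoter peak had any summit within 1 kb of a start. Intervals of all lists that overlapped or touched were merged into 194496 regions; those without a summit within 1 kb of a protein-coding start were further regions, assigned to a member if the strongest summit lay in the gene or within 50 kb. CpG and motif counts used GRCm38.p6 and promoter sequences RefSeq, with entries for 69 of 94 members; Kcnk3 had no entry. Python 3.11.15, numpy and pandas were used. Presence calls at promoters and further regions were tested on simulated peaks, and the motif search on random sequences with planted RE1 matches. No test was made between conditions. The members and lists were chosen with earlier results of these data known. Named members are 22 potassium channel genes listed by symbol, with no reason recorded for each. Also named are those open in both libraries of at least 1 condition and neither of another. Further ones are the open and closed members with most regions in all libraries, those with most patterned regions and the highest promoter peaks. Kcnq1ot1, Kcnk9, Kcnc1, Kcns2, Kcnj10, Kcnv2, Kcnt2 and others were named after their values were seen. A few genes and sequences of these lists are not reported here. Alternatives were other q limits, promoter distances, flanks, groupings, CpG windows and leaving out each library.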

Additional observations from a re-analysis of the deposited data

How the results depend on the processing

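Promoter counts moved by at most 1.5 times under every alternative run. The number of members open in all libraries, 57, ranged from 47 at a q below 0.00001 to 61 at a promoter distance of 3 kb, and the number closed, 12, from 8 at 3 kb to 18 at a q below 0.00001. Counts of further regions depended on the flank by construction, since fewer regions were considered. With a flank of 10 kb there were 180 regions in all libraries, 13 of beige and brown, 6 of beige and white, 0 of white and brown, 19 of beige alone and 10 of white alone, and inside the gene body only 134, 7, 5, 0, 15 and 8, with 11 of brown alone. With equally long lists beige and white had 9 regions. Leaving out 1 library at a time gave 57 to 59 open and 12 to 14 closed members and 346 to 388 regions in all the libraries left. It gave 32 to 72 regions of beige and brown (72 without white replicate 2), 20 to 38 of beige and white (38 without brown replicate 1), 3 to 7 of white and brown, 46 to 145 of beige alone, 24 to 155 of white alone and 22 to 128 of brown alone; the highest counts of a single condition came when 1 of its own libraries was left out, so that 1 list sufficed. Presence of a pattern therefore depends on having both replicates. The median CpG ratio was 0.646 and 0.707 in open and 0.249 and 0.265 in closed members with the start at the 5′ end of the gene and with 500 bases to each side. No paired analysis was possible because the presence calls come from no fit and neither the labels nor the methods tie equal replicate numbers to a shared animal, batch or day. Without read counts, a peak missing from a list cannot be told from one just under the threshold.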
